A study of Mus musculus with 25 samples.

Results

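Expression of 10 genes in which mutations cause inherited demyelinating or related neuropathy was examined in sciatic nerves from mice that model CMT1A. The genes were Gdap1, Mfn2, Litaf, Sh3tc2, Ndrg1, Mtmr2, Sbf1, Sbf2, Fgd4 and Fig4. They were chosen by name, as neuropathy genes other than Pmp22, and make up 10 of the 56956 genes counted in each library. Their symbols were matched from Ensembl identifiers. CMT1A itself is caused by an extra copy of PMP22, a protein of compact myelin made by Schwann cells.

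C3 mice carry 5 additional copies of human PMP22 on the C57BL/6J background (B6.Cg-Tg(PMP22)C3Fbas/J), and their controls, named WT-C3, are C57BL/6J mice. C22 mice carry 10 additional copies (Tg(PMP22)C22Clh) and are compared to FVB/NRJ controls, named WT-C22. A further group, named C3 c-Jun KO here, carries the C3 transgene and lacks c-Jun in Schwann cells (C3-PMP22 c-JunP0Cre, in which Cre is active in Schwann cells). RNA of whole sciatic nerve was sequenced when mice were 3, 5, 7, 9 or 12 weeks old, which gave 25 libraries in 5 groups. Each library is 1 pool of untreated animals of both sexes, and no group has a second pool at the same age. Replicates of a group are therefore its 5 ages (n = 5), so an SD or a standard error (SE) includes both growth of the nerve and the variation from pool to pool. Copy number and strain change together between C3 and C22 and cannot be told apart.

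The libraries held 2140142 to 49072746 counts on genes (median 24663235). The lowest depth is that of the C3 library of 9 weeks. Apart from it, C3 libraries held 23010045 to 49072746 counts and C3 c-Jun KO libraries 20619191 to 31717449. Every WT-C3 library was shallower than these, with 9001002 to 16264172 counts. Counts of human PMP22 were between 1 and 83 per library in both wild-type groups and between 25600 and 664778 in the groups with the transgene, as their labels state. Jun, which encodes c-Jun, had 26.3 to 31.7 CPM (counts scaled to library size) in C3 c-Jun KO and 93.8 to 125 CPM in C3. Human PMP22 had a median of 13300 CPM in C3 (10100 to 13900) and of 12100 CPM in C22 (9760 to 13900). C22 thus did not exceed C3 in this RNA, although it carries more copies. Whole nerve holds Schwann cells, axons without their cell bodies, and endoneurial, perineurial and epineurial cells. A lower level may thus reflect fewer cells of a type or less RNA per cell, and these cannot be told apart in bulk RNA.

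The genes act in few compartments of the cell. Litaf and Sh3tc2 encode proteins of the endosome. Litaf is a membrane protein that binds sorting proteins of late endosomes, and Sh3tc2 is an adaptor that binds Rab11 on recycling endosomes and is known mainly from Schwann cells. Mtmr2 is a myotubularin, a phosphatase of endosomal phosphoinositides. Sbf1 and Sbf2, also known as Mtmr5 and Mtmr13, are myotubularins without catalytic activity that bind Mtmr2. Fig4 is a phosphoinositide phosphatase that works in a complex with the kinase Pikfyve and the scaffold Vac14. Fgd4, or frabin, activates the small GTPase Cdc42. Ndrg1 is an abundant cytoplasmic protein of myelinating Schwann cells. Mfn2 fuses the outer membranes of mitochondria, and Gdap1 lies in the same membrane and is known mainly from neurons. Loss of Mtmr2, Sbf2, Fgd4 or Sh3tc2 leaves folded or thin myelin, whereas Mfn2 mutations mostly harm axons.

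Of the 10 genes, 9 were expressed above the minimum used for testing, set at 1 in log2 CPM and to be passed by 7 or more libraries. Per kb of merged exon, the mean level in WT-C3 was highest for Ndrg1, at 477.4 ± 44.4 CPM per kb (SD, n = 5). By its CPM, without regard to length, Ndrg1 ranked 15 of all genes in both wild-type groups and 19 in C22. Sh3tc2 followed at 18.6 ± 1.68 CPM per kb, Mtmr2 at 17.2 ± 2.72, Sbf2 at 16.5 ± 1.99 and Litaf at 14.6 ± 0.602. The intervals of mean ± SD overlapped among Sh3tc2, Mtmr2 and Sbf2, and that of Litaf overlapped those of Mtmr2 and Sbf2. Mfn2 had 12.6 ± 0.447 CPM per kb, Sbf1 9.42 ± 0.734, Fig4 6.25 ± 0.452 and Fgd4 1.58 ± 0.117. Merged exons cover all annotated transcripts of a gene (19384 bases for Fgd4 and 4659 for Fig4), and the order of the genes depends on these lengths. Before division by length, Fgd4 had 30.66 CPM and Fig4 29.12 CPM in WT-C3. In C22 the order changed, with Mtmr2 second at 28.9 ± 2.89 CPM per kb and Sbf2, at 11.2 ± 1.13, below Sbf1 at 13.6 ± 0.411.

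**Figure D1:**
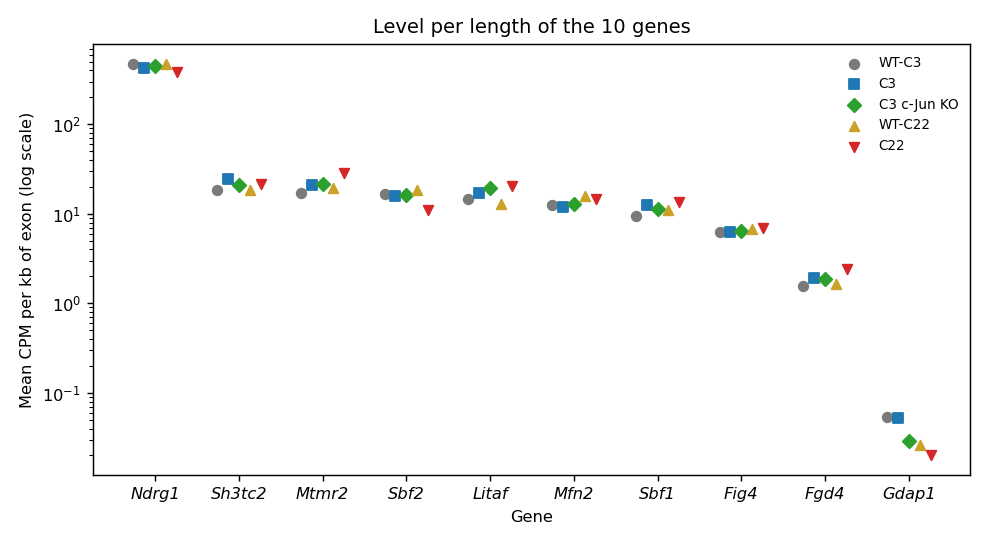
Mean level of each gene in each group in CPM per kb of merged exon, on a log axis, with 1 symbol per group (n = 5 libraries each). Ndrg1 lies between 384.5 and 477.4 CPM per kb, Fgd4 between 1.58 and 2.41, Gdap1 at 0.0544 or lower, and the other 7 genes between 6.25 and 28.9.

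Gdap1 was close to the limit of detection and was not tested. Its counts per library were 5, 13, 5, 1 and 1 in WT-C3 in the order of age, and 3, 7, 40, 0 and 22 in C3. In C3 c-Jun KO they were 3, 4, 7, 5 and 11, in WT-C22 0, 4, 4, 6 and 8, and in C22 5, 3, 6, 4 and 3. More than 3 counts, the limit used for detection in a library, were present in 17 of 25 libraries. The highest level was 1.03 CPM (WT-C3, 5 weeks), and the ranges of all groups overlapped.

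In C3 compared to WT-C3, 3 of the 9 tested genes rose and none fell. Sbf1, Sh3tc2 and Litaf were the genes that rose, by log2 0.40, 0.39 and 0.24. In C22 compared to WT-C22, 4 genes rose (Litaf, Mtmr2, Fgd4 and Sbf1) and 2 fell (Sbf2 and Ndrg1). The largest of these changes were the fall of Sbf2 to 0.609 of its control level and the rise of Litaf to 1.61 times its control level. Fig4 and Mfn2 passed the test in neither model, although Fig4 did in C22 with scaling by library size only (log2 0.20, adjusted p = 0.0327). Calls were made by edgeR's quasi-likelihood test at a Benjamini-Hochberg adjusted p under 0.05 over the 13993 genes tested. Among all of these genes, 23.9% were called in C3 (12.5% higher and 11.4% lower) and 42.4% in C22 (21.9% higher and 20.5% lower). With scaling by library size only in place of TMM, the split of all calls moved from 1743 higher and 1602 lower to 2584 and 1034 in C3, and from 3070 and 2869 to 5485 and 1736 in C22. The median log2 fold change of the 9 genes was 0.24 in C3 and 0.20 in C22, against 0.00 for all genes in both. The ranges of the 5 libraries of each group did not overlap for 1 of the 9 genes in C3 (17.5% of all genes tested) and for 6 of the 9 in C22 (30.5%).

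**Figure D2:**
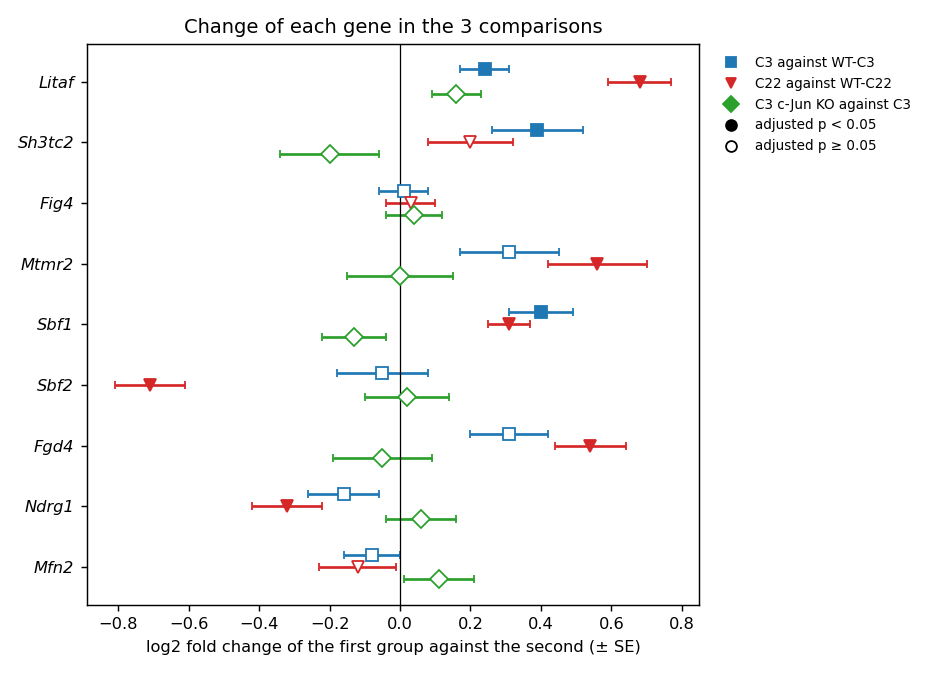
The log2 fold change of each tested gene (± SE) in C3 compared to WT-C3, C22 compared to WT-C22 and C3 c-Jun KO compared to C3, with filled symbols for an adjusted p under 0.05. Sbf2 lies near 0 in C3 and at -0.71 in C22, Litaf is higher in both models, and none of the c-Jun KO symbols is filled.

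Mtmr2 and its partners Sbf1 and Sbf2 did not move alike in C22. Sbf2 (ENSMUSG00000038371, chromosome 7, 109907209 to 110214129 of GRCm39) had 161.2, 172.8, 181.1, 169.6 and 208.2 CPM from 3 to 12 weeks in C22. In WT-C22 it had 309.0, 309.5, 272.5, 326.6 and 242.2 CPM. Every C22 library was thus below every WT-C22 library, with the smallest gap at 12 weeks. Sbf2 fell by 0.71 on the log2 scale in C22 (SE 0.10, adjusted p = 0.000165). The same-age log2 ratio was -0.94 at 3 weeks, -0.95 at 9 weeks and -0.22 at 12 weeks.

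In C3, Sbf2 had 315.2, 271.6, 232.5, 193.2 and 257.5 CPM, and in WT-C3 261.4, 292.0, 240.7, 298.4 and 224.8 CPM. These ranges overlap widely, and the log2 fold change was -0.05 (SE 0.13, adjusted p = 0.822). The lowest of the C3 values is from the shallow library of 9 weeks, without which the log2 fold change was 0.04 (adjusted p = 0.837).

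Sbf1 (ENSMUSG00000036529, chromosome 15, 89170415 to 89199544) had 121.0, 122.7, 121.6, 156.3 and 112.7 CPM from 3 to 12 weeks in C3, and 103.4, 102.1, 88.7, 87.2 and 96.1 CPM in WT-C3. All C3 libraries were above all WT-C3 libraries, and the highest was the shallow one of 9 weeks. Sbf1 rose by a log2 of 0.40 in C3 (SE 0.09, adjusted p = 0.00785), and 0.33 without that library (adjusted p = 0.00721). In C22, Sbf1 had 131.0, 142.2, 138.0, 139.5 and 139.1 CPM, and in WT-C22 109.7, 99.1, 112.5, 114.3 and 118.0 CPM. It was again higher at 5 of 5 ages without overlap, with a log2 fold change of 0.31 (SE 0.06, adjusted p = 0.00144). The exons of Sbf1 share 7.9% of their bases with Ppp6r2 on the opposite strand.

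Mtmr2 (ENSMUSG00000031918, chromosome 9, 13659706 to 13720204) had 197.3, 189.2, 199.8, 155.0 and 176.4 CPM from 3 to 12 weeks in C22, and 147.0, 150.7, 123.2, 115.2 and 85.7 CPM in WT-C22. The C22 libraries all lay above the WT-C22 libraries, and the same-age log2 ratio was largest at 12 weeks (1.04). Mtmr2 rose by a log2 of 0.56 in C22 (SE 0.14, adjusted p = 0.00754). In C3 it had 167.7, 152.1, 135.7, 111.5 and 107.3 CPM, and in WT-C3 128.2, 123.3, 105.9, 104.1 and 84.7 CPM. It was higher than its control at 5 of 5 ages in C3, while the ranges of the groups overlapped. There the log2 fold change of 0.31 did not pass the test (SE 0.14, adjusted p = 0.136). Mtmr2 fell with age in both groups (linear slope -0.066 per week in WT-C3 and -0.075 in C3), which a fit without age counts as error. With age as a block, which pairs the libraries, it passed in C3 (adjusted p = 0.0182). It also passed with scaling by library size only (0.0414). Without the block, it passed in 0 of 10 fits with a library left out (adjusted p between 0.0595 and 0.277).

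The RNA levels of these partners relative to each other were also set out as ratios of counts in the same library, which need no scaling between libraries. Counts are not corrected for exon length (15985 bases for Sbf2, 10137 for Sbf1 and 6361 for Mtmr2). A ratio can thus be compared between groups, but does not give the relative amounts of the 2 RNAs or of their proteins. Counts of Sbf2 per count of Sbf1 had a median of 2.82 in WT-C22 (2.05 to 3.12) and of 1.23 in C22 (1.22 to 1.5). In WT-C3 the median was 2.71 (2.34 to 3.42), in C3 2.21 (1.24 to 2.60) and in C3 c-Jun KO 2.36 (1.84 to 2.47). The C22 libraries were below those of WT-C22, and the only library of another group within the C22 range was the shallow C3 library of 9 weeks. Counts of Mtmr2 per count of Sbf2 had a median of 0.452 in WT-C22 (0.353 to 0.487) and of 1.09 in C22 (0.847 to 1.22), which is above every library of the other groups. Counts of Mtmr2 per count of Sbf1 overlapped between C22 (1.11 to 1.51) and WT-C22 (0.726 to 1.52). These ratios were formed from genes already described and are given without a test.

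**Figure D3:**
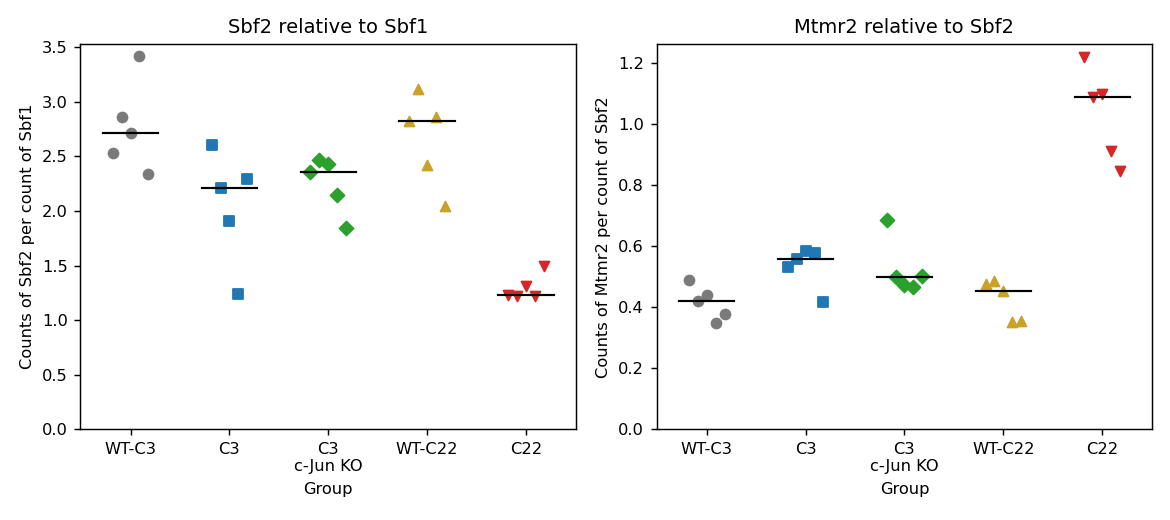
Counts of Sbf2 per count of Sbf1 (left) and of Mtmr2 per count of Sbf2 (right) in each library, with 1 point per library in the order of age and a line at the median of each group. The C22 medians of 1.23 and 1.09 stand apart from the WT-C22 medians of 2.82 and 0.452.

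Fig4 (ENSMUSG00000038417, chromosome 10, 41064157 to 41179276) lay between 26.8 and 36.0 CPM over all 25 libraries. Its log2 fold change was 0.01 in C3 (SE 0.07, adjusted p = 0.917) and 0.03 in C22 (SE 0.07, adjusted p = 0.752). The groups overlapped at both comparisons, and within each model the same-age ratios went both ways.

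Litaf (ENSMUSG00000022500, chromosome 16, 10777139 to 10884021) had 116.9, 145.5, 119.6, 103.5 and 126.0 CPM from 3 to 12 weeks in C22. In WT-C22 it had 78.0, 67.1, 72.7, 80.7 and 80.7 CPM, so that all C22 libraries were above all controls. Litaf rose by a log2 of 0.68 in C22 (SE 0.09, adjusted p = 0.000129). In C3, Litaf had 106.0, 103.1, 105.5, 91.0 and 105.6 CPM, compared to 84.0, 85.7, 89.1, 92.2 and 83.9 CPM in WT-C3. It was higher at 4 of 5 ages, the exception being 9 weeks, where the C3 library is the shallow one. Litaf rose by a log2 of 0.24 in C3 (SE 0.07, adjusted p = 0.0256), and by 0.28 without that library (adjusted p = 0.00596). The call in C3 was lost when the WT-C3 library of 3 (adjusted p = 0.055), 5 (0.0504) or 12 weeks (0.0546) or the C3 library of 5 (0.0595) or 7 weeks (0.068) was left out.

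Sh3tc2 (ENSMUSG00000045629) had 163.3, 160.0, 131.6, 195.5 and 108.5 CPM from 3 to 12 weeks in C3, and 124.1, 122.7, 100, 118.5 and 107.7 CPM in WT-C3. It was higher at 5 of 5 ages, by a same-age log2 ratio of 0.72 at 9 weeks and of 0.01 at 12 weeks. The log2 fold change was 0.39 (SE 0.13, adjusted p = 0.0477). This call is at the threshold: it was lost in 9 of 10 fits with a library left out (adjusted p up to 0.107, and 0.0844 without the shallow C3 library of 9 weeks) and kept only without the C3 library of 12 weeks (0.00886). In C22, Sh3tc2 had 108.6 to 153.7 CPM with a median of 129.7, and in WT-C22 93.1 to 145.4 CPM with a median of 109.5. The ranges overlapped, and the log2 fold change of 0.20 did not pass the test (SE 0.12, adjusted p = 0.199). It did without the WT-C22 library of 3 weeks (adjusted p = 0.0324) or with scaling by library size only (0.0113).

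The promoters of Litaf, Sbf1 and Sbf2 are shown because Litaf and Sbf2 are the genes whose change differed between the models (below), and Sbf1 is the partner that rose while Sbf2 fell in C22. RefSeq gives 1 start for each in the promoter table (build GRCm38.p6), and 250 bases before to 50 bases after it are printed 5′ to 3′ on the strand of the gene. These starts were not matched to the gene models of GRCm39, so a gene may have further starts outside the printed window. Of the 10 genes, 7 had an entry there, and Gdap1, Sh3tc2 and Ndrg1 did not. Capitals mark matches, on either strand, to the letters CACGTG (an E-box), TGANTCA (AP-1, the site of c-Jun dimers), GGAATG (TEAD), GCGTGGG (EGR, the family of Egr2) and ACAAAG (SOX, the family of Sox10).
Litaf, chr16:10993072-10993371, minus strand: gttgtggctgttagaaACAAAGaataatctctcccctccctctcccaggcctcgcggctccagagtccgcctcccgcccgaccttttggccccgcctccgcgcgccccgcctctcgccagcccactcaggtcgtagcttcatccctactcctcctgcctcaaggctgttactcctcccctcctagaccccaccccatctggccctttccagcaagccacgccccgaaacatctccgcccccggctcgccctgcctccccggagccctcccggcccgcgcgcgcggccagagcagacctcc
Sbf1, chr15:89315262-89315561, minus strand: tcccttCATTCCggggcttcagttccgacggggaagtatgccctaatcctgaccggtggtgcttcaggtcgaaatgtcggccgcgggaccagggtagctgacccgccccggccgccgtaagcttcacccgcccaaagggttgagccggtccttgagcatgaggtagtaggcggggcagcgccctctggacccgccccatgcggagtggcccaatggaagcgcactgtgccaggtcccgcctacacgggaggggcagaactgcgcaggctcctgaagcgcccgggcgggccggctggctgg
Sbf2, chr7:110614871-110615170, minus strand: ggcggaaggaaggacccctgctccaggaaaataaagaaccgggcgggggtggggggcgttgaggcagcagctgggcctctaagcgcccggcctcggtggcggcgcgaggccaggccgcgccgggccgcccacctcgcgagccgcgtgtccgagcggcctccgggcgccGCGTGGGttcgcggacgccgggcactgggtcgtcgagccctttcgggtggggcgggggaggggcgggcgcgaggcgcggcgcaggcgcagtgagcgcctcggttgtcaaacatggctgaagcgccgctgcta
The Litaf promoter holds 1 SOX match, that of Sbf1 1 TEAD match and that of Sbf2 1 EGR match, and their GC contents are 68.3%, 68.0% and 75.3%. No match to the other letters lies in these windows. Among the 32851 promoters of the same length, 18.7% hold the SOX letters, 14.7% the TEAD letters, 5.04% the EGR letters, 7.81% the AP-1 letters and 7.15% the E-box. A match is a description of the letters only.

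Fgd4 (ENSMUSG00000022788, chromosome 16, 16234775 to 16418414) had 48.5, 49.1, 49.4, 43.6 and 42.8 CPM from 3 to 12 weeks in C22, and 32.9, 36.7, 32.5, 32.6 and 25.1 CPM in WT-C22. All C22 libraries were above all WT-C22 libraries. Fgd4 rose by a log2 of 0.54 (SE 0.10, adjusted p = 0.000828). In C3 it had 48.1, 38.2, 38.3, 31.3 and 31.9 CPM, against 30.9, 30.6, 28.2, 34.3 and 29.4 CPM in WT-C3. The excess was largest at 3 weeks and the groups overlapped at the older ages. The log2 fold change of 0.31 missed the threshold in C3 (SE 0.11, adjusted p = 0.069), but passed it without the shallow C3 library of 9 weeks (0.36, adjusted p = 0.0337) or the one of 12 weeks (adjusted p = 0.0331).

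Ndrg1 (ENSMUSG00000005125, chromosome 15, 66801166 to 66841835) had 2579, 3034, 3065, 2562 and 3134 CPM from 3 to 12 weeks in C22, and 3677, 3528, 3553, 3802 and 3261 CPM in WT-C22. The C22 libraries were all below the control libraries, with a same-age log2 ratio from -0.57 at 9 weeks to -0.06 at 12 weeks. Ndrg1 fell by 0.32 on the log2 scale (SE 0.10, adjusted p = 0.0269). The call was lost without the WT-C22 library of 9 weeks (adjusted p = 0.0626) or the C22 library of 3 weeks (0.0637), and with scaling by library size only (0.232). In C3 it was lower than in WT-C3 at 5 of 5 ages, with 2943 to 3567 CPM against 3236 to 3959 CPM. The log2 fold change of -0.16 did not pass the test (SE 0.10, adjusted p = 0.251).

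Mfn2 (ENSMUSG00000029020, chromosome 4, 147955508 to 147989585) had 109.7 to 142.8 CPM in C3 (median 123.7) and 125.1 to 136.0 CPM in WT-C3 (median 135.8). In C22 it had 132.7 to 169.2 CPM (median 156.3) and in WT-C22 132.9 to 212.6 CPM (median 163.4). Both pairs of groups overlapped. The log2 fold change was -0.08 in C3 (SE 0.08, adjusted p = 0.5) and -0.12 in C22 (SE 0.11, adjusted p = 0.429). Its exons share 11.8% of their bases with Fv1 on the opposite strand, which had at most 166 counts in a library.

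**Figure D4:**
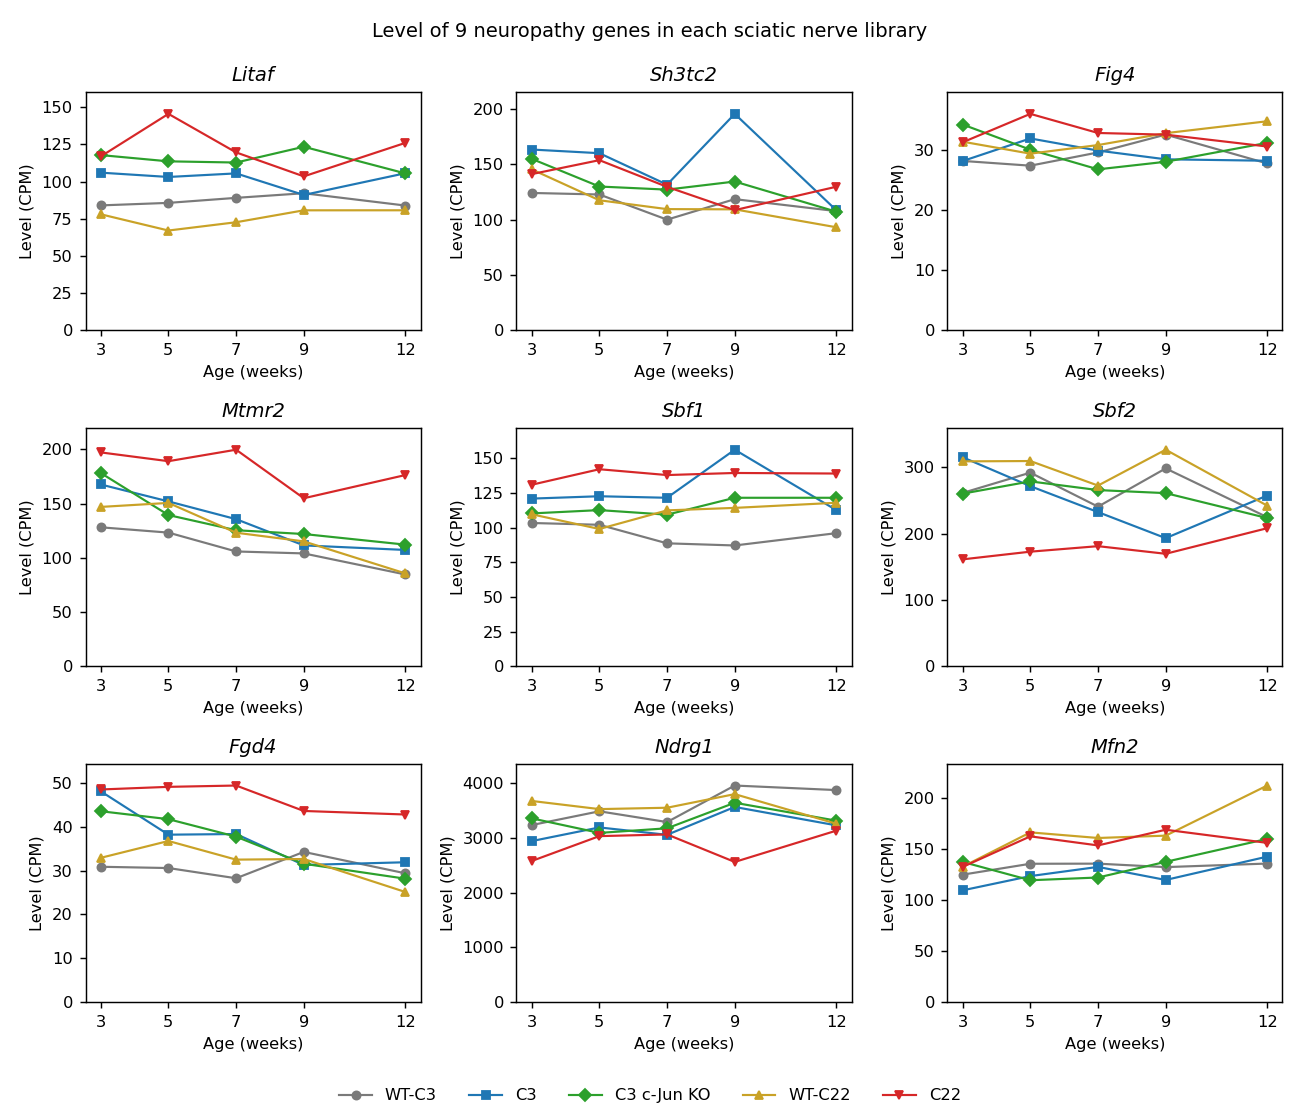
Level of the 9 tested genes in CPM against age in weeks, with 1 point per library and 1 line per group. Sbf2 is lowest in C22 at every age, Litaf in C22 lies between 103.5 and 145.5 CPM and above both wild-type groups, and the C3 library of 9 weeks is highest for Sh3tc2 (195.5 CPM) and Sbf1 (156.3 CPM).

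**Figure D5:**
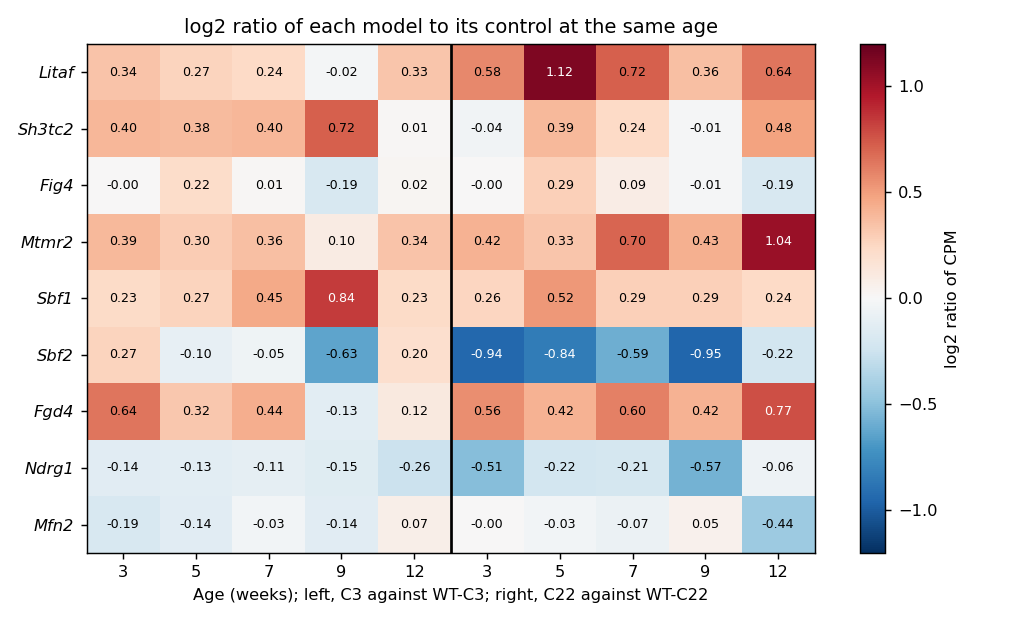
The log2 ratio of each model to its control at the same age, with 1 cell per gene and age (red, higher in the model; blue, lower). Mtmr2, Sbf1, Fgd4 and Litaf are higher at all 5 ages in C22, Sbf2 and Ndrg1 are lower at all 5, and Fig4 and Mfn2 change sign with age.

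The change in C22 was then compared to the change in C3, in a single fit of the 20 libraries concerned. The change differed for 2 of the 9 genes, compared to 12.1% of all genes tested. For Sbf2 the difference (C22 minus C3) was -0.68 (SE 0.17, adjusted p = 0.01), and for Litaf it was 0.43 (SE 0.11, adjusted p = 0.0119). Litaf was thus higher in both models and more so in C22, while Sbf2 was lower in C22 and did not pass the test in C3. Both differences passed the test whichever library was left out, with an adjusted p between 0.00214 and 0.0274 for Sbf2 and between 0.00432 and 0.0254 for Litaf. For Mtmr2 and Fgd4 the differences of 0.23 (SE 0.21, adjusted p = 0.566) and 0.22 (SE 0.15, adjusted p = 0.419) did not pass. The same holds for Sh3tc2 at -0.21 (SE 0.19, adjusted p = 0.544) and Ndrg1 at -0.17 (SE 0.13, adjusted p = 0.443). The calls of these 4 genes in one model alone, in the fit without age, are thus not shown to be particular to it. With age as a block Mtmr2 was called in both models (adjusted p = 0.0182 in C3 and 0.00384 in C22), and its difference again did not pass (0.17). For Sbf1, called in both models, the difference was -0.11 (SE 0.11, adjusted p = 0.609).

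Loss of c-Jun in Schwann cells of C3 nerve was followed by no call among the 9 genes in edgeR's quasi-likelihood test, and 1 gene, Litaf, had an unadjusted p under 0.05 (0.0303). DESeq2 called 0 of the 9 as well, also with 1 at an unadjusted p under 0.05. Of all genes, 0.55% (77) were called in this comparison. With age as a block, which pairs the libraries here, 273 genes were called and still 0 of the 9. The values of single genes that follow are from the fit without the block. Of 5 tested markers of repair Schwann cells, among them Jun itself, 2 fell. Litaf had 117.8, 113.6, 112.8, 123.4 and 105.5 CPM in C3 c-Jun KO, and the log2 fold change to C3 was 0.16 (SE 0.07, adjusted p = 0.55). Sh3tc2 was lower than in C3 at 5 of 5 ages, by a log2 fold change of -0.20 (SE 0.14, adjusted p = 0.824). The other 7 genes had log2 fold changes between -0.13 (Sbf1) and 0.11 (Mfn2). In C3 c-Jun KO compared to WT-C3, Litaf (0.40, SE 0.06, adjusted p = 0.001) and Sbf1 (0.27, SE 0.07, adjusted p = 0.0192) were higher, which is 2 of the 9 genes, against 21.5% of all genes. The call of Sbf1 there was lost without the WT-C3 library of 7 weeks (adjusted p = 0.0511) or the C3 c-Jun KO library of 9 weeks (0.0521). This comparison shares its control libraries with that of C3 to WT-C3. Mtmr2 had a log2 fold change of 0.31 in both of them, and Fgd4 of 0.25 here and 0.31 there.

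Between the wild-type groups, WT-C22 and WT-C3, 1 of the 9 genes passed the test, compared to 21.7% of all genes. This was Mfn2, which was higher in WT-C22 at 5 of 5 ages (log2 0.33, SE 0.11, adjusted p = 0.0432). The call was lost in 9 of 10 fits with a library left out (adjusted p between 0.0604 and 0.0894) and kept only without the WT-C22 library of 3 weeks (0.00882). With age as a block, 1 of the 9 genes and 3721 of all 13993 were called. Of the 9, 5 then had an unadjusted p under 0.05, compared to 3 without the block. Cell markers also differed between the wild types. All 4 mast cell markers were higher in WT-C22 (sum of 46.8 to 174 CPM, against 23.9 to 60.8 CPM in WT-C3), as were 3 of 5 adipocyte markers (968 to 2860 CPM, against 824 to 1600 CPM). Of 5 perineurial markers 2 were lower. The sum over the 5 was not, with 1320 to 2010 CPM (median 1710) in WT-C22 against 1300 to 2000 CPM (median 1570) in WT-C3. Whether these markers have a part in the difference of Mfn2 was not tested. Litaf had 67.1 to 80.7 CPM in WT-C22 and 83.9 to 92.2 CPM in WT-C3, ranges that do not overlap, with a log2 fold change of -0.20 (SE 0.07, adjusted p = 0.0652). The control from which Litaf is measured in C22 is thus the lower of the 2. Sbf1 was higher in WT-C22 than in WT-C3 at 4 of 5 ages and just missed the threshold (log2 0.21, SE 0.07, adjusted p = 0.0573). The control from which Sbf1 is measured in C3 and C3 c-Jun KO thus had the lower mean, 95.48 CPM against 110.7 CPM.

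Over age, only Mtmr2 in WT-C22 passed the spline test (adjusted p = 0.0426). Its level went from 147.0 CPM at 3 weeks to 85.7 CPM at 12 weeks, a linear slope of -0.089 log2 units per week (SE 0.016, adjusted p = 0.00209). The spline call was lost with any of the 5 WT-C22 libraries left out. Of all 15298 genes in this test, 2.86% were called in WT-C22, 0.693% in WT-C3, 2.27% in C3, 3.38% in C3 c-Jun KO and 0.752% in C22. Among the 9 genes, the edgeR spline called 0 in WT-C3, C3, C3 c-Jun KO and C22, with 1, 4, 3 and 1 at an unadjusted p under 0.05, and the likelihood ratio test of DESeq2 called 0, 1, 1 and 0. With a linear slope, which spends fewer degrees of freedom, Mtmr2 also passed in WT-C3 (-0.066 per week, adjusted p = 0.025), C3 (-0.075, adjusted p = 0.00723) and C3 c-Jun KO (-0.064, adjusted p = 0.0155). In C22 the slope of Mtmr2 was -0.023 per week (SE 0.015, adjusted p = 0.51). Fgd4 passed with a linear slope in C3 (-0.062, adjusted p = 0.0328) and C3 c-Jun KO (-0.071, adjusted p = 0.0156), and Mfn2 in WT-C22 (0.063, adjusted p = 0.0238).

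The difference of the time courses themselves passed the test for 0 of the 9 genes. The edgeR spline test of C22 and WT-C22 called 0.0523% of all genes, with 2 of the 9 at an unadjusted p under 0.05, and that of C3 and WT-C3 called 0.0261%, with 1 of the 9. For C3 c-Jun KO and C3 it called 0.0588% of all genes and had 0 of the 9 at that level. DESeq2 also called 0 of the 9 in each. For Mtmr2, the slope in C22 minus that in WT-C22 was 0.066 per week (SE 0.022, adjusted p = 0.195), so that its smaller slope in C22 is not shown to differ.

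Among themselves the genes were not all alike over the 25 libraries. Mtmr2 and Fgd4 had the most similar pattern, with Pearson's r of 0.90 in log2 CPM, and 0.80 once the group means were removed. Sbf1 and Sbf2 had an r of -0.65 (-0.46 with group means removed). Mtmr2 and Sbf2 had an r of -0.33 over all libraries and of 0.57 with group means removed. These values are descriptions, since libraries of one group share a genotype and libraries of one age may share growth of the nerve.

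The genes outside this group that came closest to each member over the 25 libraries are given with their r. Sbf1 came closest to Usp10 (r = 0.97), L3mbtl2 (0.95) and Pcsk7 (0.94). Litaf came closest to Nradd (0.94), Slain1 (0.93) and Cog2 (0.92), of which Slain1 had an r of only 0.34 once group means were removed. For Mtmr2 they included Pld1 (0.94) and Vstm2a (0.93), and for Fgd4 they were Ezh2 (0.93), Itgb8 (0.92) and Dsel (0.92). Sh3tc2 was nearest to Hid1 (0.93), Vps37c (0.88) and Gal3st1 (0.87), an enzyme of sulfatide synthesis. Sbf2 was nearest to Wnk1 (0.93), AI197445 (0.93) and Agps (0.92), an enzyme of plasmalogen synthesis. The nearest genes of Ndrg1 were Gprc5b (0.89), Apbb1 (0.88) and Paqr6 (0.87), those of Mfn2 Slc5a6 (0.91), Coq5 (0.91) and Pcca (0.90), and those of Fig4 Lman2 (0.89), Eef1a1 (0.87) and Ddost (0.85).

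Some other genes of demyelinating neuropathy had larger changes than the 10. Of 27 such genes, all tested, 8 rose and 5 fell in C3, and 8 rose and 10 fell in C22, with a median log2 fold change of 0.19 and -0.09. Over all genes tested, 12.5% were higher and 11.4% lower in C3, and 21.9% higher and 20.5% lower in C22. The lists and markers that follow are to be read beside the same shares. In C22 large changes were those of Drp2 (-2.48, SE 0.21, adjusted p = 4.62e-06), a protein of the Schwann cell membrane next to the basal lamina, the neurofilament gene Nefl (-2.38, SE 0.19, adjusted p = 2.78e-06) and Fbln5 (-1.96, SE 0.08, adjusted p = 1.71e-08). In C3, Fbln5 (-0.95) and Nefl (-0.71) fell and Plekhg5 rose (0.71). Of 52 genes of axonal and sensory neuropathy, 49 were tested, of which 12 rose and 9 fell in C3 and 4 rose and 15 fell in C22. Lmna rose in both (0.83 in C3, adjusted p = 0.000284, and 0.70 in C22, adjusted p = 0.000177), and Nefh (-1.34) and Sptlc2 (-1.11) fell most in C22.

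Around the phosphatases, 22 genes of phosphoinositide kinases and phosphatases and of proteins related to them, channels among them, were tested. In C3, 5 rose and 1 fell, and in C22 5 rose and 7 fell, with medians of -0.05 and -0.04. Tpcn2, a lysosomal channel, rose in both (0.59, adjusted p = 0.00518, and 0.62, adjusted p = 0.000493), and the phosphatase Sacm1l fell in both (-0.40, adjusted p = 0.0107, and -0.47, adjusted p = 0.000298). Vac14, the partner of Fig4, rose in C3 (0.36, adjusted p = 0.0164), and Mcoln1 rose (0.53) and Inpp4a fell (-0.66) in C22. Between the wild types, 2 genes of this list were higher in WT-C22 than in WT-C3, among them Vac14 (0.40, adjusted p = 0.0105), and 1 was lower. Of 30 tested genes of endosomal sorting and recycling, 0 rose and 5 fell in C3, and 1 rose and 9 fell in C22, with medians of -0.06 and -0.08. Over all genes, 23.9% were called in C3 and 42.4% in C22, larger shares than in this list. Rab11a, the GTPase bound by Sh3tc2, fell in C3 (-0.65, SE 0.06, adjusted p = 8.31e-05) and in C22 (-0.63, SE 0.09, adjusted p = 0.000151), as did its effector Rab11fip4 (-0.69 and -1.26). Rab11a and Sh3tc2 thus moved in opposite directions in C3. The call of Sh3tc2 there was at the threshold (adjusted p = 0.0477) and was lost in most fits with a library left out.

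Of 19 tested genes of the Cdc42 and Rac signal, 5 rose and 5 fell in C3 and 2 rose and 12 fell in C22, with medians of -0.09 and -0.23. Pak1, a kinase activated by Cdc42, rose in both (0.65, adjusted p = 0.00421, and 0.66, adjusted p = 4.19e-05), and Cdc42ep3 fell in C22 (-1.21, adjusted p = 1.77e-06). Between the wild types, 3 genes of this list were higher in WT-C22 than in WT-C3, among them Pak1 (0.68, adjusted p = 0.00149), and 1 was lower. Of 19 tested genes of mitochondrial fusion, fission and transport, 0 rose and 1 fell in C3, which was Rhot1 (-0.34, adjusted p = 0.0293). In C22, 3 rose and 8 fell, among them Rhot1 (-0.65, adjusted p = 0.00106) and Pink1 (-0.62, adjusted p = 0.000258). Of 16 tested paralogs of the 10 genes, 3 rose and 1 fell in C3, and 1 rose and 5 fell in C22. Ndrg2 fell in C22 as Ndrg1 did (-0.67, SE 0.11, adjusted p = 0.000583), and Mfn1 passed the test in neither model (0.07 and 0.05), like Mfn2. Among the relatives of Fgd4, Fgd3 (1.07, adjusted p = 0.00101) and Fgd2 (0.53, adjusted p = 0.007) rose in C3, and Fgd5 (-0.53, adjusted p = 0.00229) and Fgd6 (-0.66, adjusted p = 0.0174) fell in C22.

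Markers of the cells in the nerve moved beside these results. The summed level of 9 markers of myelinating Schwann cells was 24800 to 37500 CPM in C22 and 48100 to 98200 CPM in WT-C22, and 39600 to 59300 CPM in C3 against 59900 to 104000 CPM in WT-C3. Of these markers 1 rose and 5 fell in C22, and 2 rose and 3 fell in C3. Of 5 general Schwann cell markers, 3 rose and 1 fell in C22 and 2 rose in C3, among them Sox10 (0.51 and 0.59). Of 5 tested markers of repair Schwann cells, 4 rose and 1 fell in C22 and 5 rose in C3. Of the 9 listed repair markers, 1 was at 0 in all C22 libraries. The sum over the 9 was 253 to 357 CPM in C22 and 100 to 148 CPM in WT-C22, and 327 to 430 CPM in C3 against 136 to 166 CPM in WT-C3. All 4 proliferation genes rose in both models. Perineurial markers fell for 4 of 5 in C22 (sum of 921 to 1170 CPM, against 1320 to 2010 CPM in WT-C22) and 3 of 5 in C3. Endothelial and pericyte markers fell for 5 of 6 in C22 (sum of 464 to 706 CPM, against 762 to 925 CPM) and 1 of 6 in C3. Of 9 macrophage markers, 2 rose and 1 fell in C22 and 1 rose in C3, and of 6 fibroblast markers 1 fell in C22 and 0 changed in C3. Mast cell markers were called for 1 of 4 in C22 and 0 in C3, and markers of adipocytes, skeletal muscle and blood for 0 in both. No marker of myelinating Schwann cells was at 0 in a group. Whether these shifts have a part in the changes of Litaf, Mtmr2, Sbf1, Sbf2, Fgd4 and Ndrg1 was not tested.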

How the data were processed

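Whole sciatic nerve was measured in 25 libraries of poly(A) RNA, 1 per group and age. Per the labels and the study's methods, the authors trimmed reads with Cutadapt 2.10, aligned them with STAR 2.7.5a to GRCm39 with the human transgene locus (GRCh38) added, removed duplicates with UMI-tools 1.1.1 and deposited raw counts per gene from HTSeq 0.12.4, without normalization. The strand setting of the counting is not given in the sources used here, so reads of overlapping antisense genes may not be separated. The depth on genes was 2140142 to 49072746 counts, and precision at the low end is limited by counting error.

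Counts were analysed with edgeR 4.0.16 in R 4.3.3. The 13993 genes that exceeded 1 in log2 CPM in 7 or more libraries (25%) were kept, scaled by TMM among the libraries compared, and tested by quasi-likelihood with group as the only term and Benjamini-Hochberg adjustment (threshold 0.05). Age effects used a natural spline with 3 degrees of freedom per group in 1 fit of all libraries, on 15298 genes past filterByExpr, and a linear slope. Levels are TMM-scaled CPM, and correlations used log2(CPM + 0.5). Exon lengths and positions are from GENCODE M39 (GRCm39). The steps were tested on simulated data.

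The members and gene lists were chosen with earlier results of these data known. Named are all 10 genes, human PMP22 and Jun as a check of labels, up to 4 called genes with the largest changes per list, and the 3 genes closest to each member. Mfn1 was added after its values were seen, and a few genes the rule names are not reported here. The summed lists cover other demyelinating and axonal neuropathy genes, phosphoinositide, mitochondrial, endosomal and Cdc42 genes, paralogs and cell markers. Once group means were removed, correlations across genes between libraries of the same age were computed. They were positive at every age for C3 c-Jun KO and C3 (0.445, 0.143, 0.326, 0.289 and 0.614), where counts of calls with age as a block are given beside the main fit. The log2 fold changes, SEs and adjusted p-values of single genes there are of the fit without age. For WT-C22 and WT-C3 they were positive at every age as well (0.375, 0.667, 0.194, 0.519 and 0.06). There too the values of single genes are of the fit without age unless the block is named, and counts with the block are given beside them. Results were recomputed with DESeq2 1.42.0, with edgeR's likelihood ratio test, with size factors by median ratio or by library size, with other filters, with a single fit of all libraries, with a block for age, at a threshold of 0.01, and without each library in turn.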

Additional observations from a re-analysis of the deposited data

Results flagged for a closer look

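Of the 45 sets of 5 libraries (9 genes in 5 groups), 2 hold a library that stands apart from the other 4 by Dixon's test, where chance marks about 1 in 20. Both are the C3 library of 9 weeks, the shallowest of the series: Litaf had 91.0 CPM there against 103 to 106 CPM at the other ages, and Sbf1 156 CPM against 113 to 123 CPM. The change of Litaf was larger in C22 than in C3, by 0.43 on the log2 scale in edgeR's test of the difference, with both models higher than their controls at 4 or more of 5 ages. The change of Sbf2 in C22 minus that in C3 was -0.68 in the same test, with C22 lower at 5 of 5 ages and C3 lower at 3 of 5.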

How the results depend on the processing

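Sbf2, Litaf, Mtmr2, Sbf1 and Fgd4 in C22 and Sbf1 in C3 passed under every alternative at the 0.05 threshold. With scaling by library size only, the median of all genes moved to 0.17 in C22, where 7 genes were called (Sh3tc2 and Fig4 gained, Ndrg1 lost), and 5 genes were called in C3, 5 in C3 c-Jun KO against WT-C3 and 0 between the wild types. At a threshold of 0.01 the counts were 1 in C3, 0 for the difference between models, 1 in C3 c-Jun KO against WT-C3 and 0 between wild types, where DESeq2 called 3 and the fit of all libraries 2. For age, 2 degrees of freedom called 1 gene in C3 and 2 in C3 c-Jun KO, a linear slope 1 in WT-C3 and 2 each in C3, C3 c-Jun KO and WT-C22, DESeq2 1, 1 and 2 in C3, C3 c-Jun KO and WT-C22, and a fit of WT-C22 with C22 alone 0 in WT-C22. With a library left out, the counts ran from 1 to 4 in C3 (3 without its library of 9 weeks), 5 to 7 in C22, 1 to 3 in C3 c-Jun KO against WT-C3, 0 to 1 between wild types, 0 to 2 for age in C3 and 0 to 0 for age in WT-C22. With age as a replicate block the counts were 3 in C3, 6 in C22, 3 in C3 c-Jun KO against WT-C3 and 0 against C3. Same-age correlations were positive at every age in the last of these and between the wild types. Between the wild types the block called 1 gene, with 5 of the 9 at an unadjusted p under 0.05, against 3 without it. In C3 the block called Mtmr2 (adjusted p = 0.0182) in place of Litaf (0.0543). Without the filter Litaf was also lost in C3 (0.0814), and with median-ratio size factors Sh3tc2 (0.0574). The cause of these shifts was not tested.

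Log2 values that changed sign were all of genes not called. Under library size only these were Sbf2 in C3 (0.027) and in C3 c-Jun KO against WT-C3 (0.055, and 0.0041 without a filter), Mfn2 in C22 (0.050), Sh3tc2 between wild types (-0.0096, and -0.0057 with the block), and, for the difference between models, Mfn2 (0.054), Sbf1 (0.0034) and Fig4 (0.11). The difference of Fig4 was also 0.010 with median-ratio size factors, 0.022 without a filter, 0.023 with filterByExpr and 0.019 with all libraries. Ndrg1 between wild types was 0.00059 with median-ratio size factors, 0.00055 with DESeq2, 0.032 without a filter, 0.0023 with filterByExpr and 0.0013 with the block. With a library left out, signs changed within these ranges: Fig4 from -0.016 to 0.057 in C3, -0.0085 to 0.062 in C22, -0.048 to 0.040 for their difference, and -0.0050 to 0.075 and -0.0030 to 0.091 in C3 c-Jun KO against C3 and WT-C3; Sbf2 from -0.13 to 0.036 in C3, and -0.060 to 0.11 and -0.086 to 0.018 in the same comparisons of C3 c-Jun KO. Fgd4 ran from -0.11 to 0.056 and Mtmr2 from -0.10 to 0.097 in C3 c-Jun KO against C3, Mfn2 from -0.10 to 0.045 for the difference and -0.044 to 0.063 in C3 c-Jun KO against WT-C3, and Ndrg1 from -0.036 to 0.039 and Sh3tc2 from -0.093 to 0.072 between wild types. Depth limits Gdap1 most, and the C3 library of 9 weeks with its 61 counts of Fig4.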
